A study of Mus musculus with 9 samples.

Results

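Genes of the osteoblast, the cell that builds bone, were followed in bone marrow stromal cells of leukemic mice. The set was chosen by name and holds 9 genes. They are the regulators Runx2, Sp7 and Dlx5, the enzymes Alpl and Phex, and the mineral matrix proteins Ibsp, Spp1, Bglap and Dmp1. Of these, 6 had at least 1 probe set that the array's annotation assigns to that gene alone, among 18194 such genes on the array. Runx2, Spp1 and Bglap had none and were not analysed here. The 6 measured genes had 10 probe sets between them, and each gene is represented by whichever of its probe sets had the brightest mean across 9 arrays.

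RNA came from marrow cells of FVB/NJ mice, sorted to lack both CD45.1, an allelic form of the CD45 protein of blood cells, and Ter119, which marks the red cell lineage. There were 3 arrays of wild-type mice (WT), 3 of leukemic recipients at an early phase (E), when 1 to 5% of marrow cells were leukemic, and 3 at a medium phase (M), when 5 to 50% were. The labels call the arrays within each group biological replicates. The p-values set a difference against the spread between replicates, estimated over all 3 groups together. The leukemia model, the age and sex of the mice, the treatment of recipients before transfer and any pooling of animals are not given in the sources used here, and the WT mice are not described as transplanted. Values are log2 MAS5 signals, a scale on which a step of 1 is a doubling, and with 3 arrays a group their precision is limited.

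Osteoblasts arise from mesenchymal progenitors under the transcription factor Runx2, with Sp7 (osterix) acting after it and Dlx5, a homeobox factor, acting upstream of both. The maturing cell displays tissue-nonspecific alkaline phosphatase (Alpl), which breaks down pyrophosphate, an inhibitor of mineral. It then secretes acidic phosphoproteins that bind mineral, among them bone sialoprotein (Ibsp), osteopontin (Spp1) and dentin matrix protein 1 (Dmp1). Dmp1 and the endopeptidase Phex are most typical of osteocytes, the cells enclosed in bone, where both restrain the phosphate hormone Fgf23. Growth cartilage near bone also makes Alpl, Ibsp and Runx2, and Alpl is found on marrow reticular cells, so these genes are not exclusive to osteoblasts.

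The M arrays stood apart from the others, and M replicate 3 stood apart within its group. The first principal component carried 90.0% of the variance and placed M at 69.4, 68.4 and 90.3, against values from -43.1 to -33.5 for WT and E. The median signal over all probe sets lay from 5.60 to 5.68 in WT, 5.43 to 5.60 in E and 6.24 to 6.28 in M. Poly-A control RNAs, spiked in before labelling, also read higher in M (9.88 to 10.44) than in WT (8.94 to 9.27) or E (9.03 to 9.20). Signals of blood cell genes were present in every group despite the sort. The summed linear signal of 7 measured pan-leukocyte markers, none of them at 0, was 4469 to 4999 in WT, 3183 to 3451 in E and 8773 to 16224 in M, and that of 7 erythroid markers 38196 to 41902, 31991 to 32669 and 19344 to 47097. The 10 granulocyte markers summed to 9895 to 10981 in WT, 12741 to 13879 in E and 93442 to 112954 in M. By the test given below (limma adjusted p under 0.05), 10 of 10 rose in M against WT, where 25.3% of all tested genes did. In E against WT 5 rose and 2 fell, where 0.462% and 1.65% of tested genes did. Summed signals of 9 markers of mesenchymal stroma such as Cxcl12 and Lepr were 2278 to 2754 in WT, 2558 to 2704 in E and 46654 to 56720 in M. The 15 cartilage markers, led by collagens II and IX, summed to 32191 to 37957, 19003 to 19923 and 161073 to 188665. Of the markers tested, 15 of 15 cartilage, 8 of 8 stromal and 7 of 7 pan-leukocyte markers also rose in M against WT. Of 6 erythroid markers 0 rose and 2 fell, where 43.5% of all tested genes fell. No marker of these lists was at 0. In bulk RNA of sorted cells, fewer cells of a type and less RNA per cell cannot be told apart, and the part of these shifts in the results below was not tested.

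All 6 measured genes were higher in M than in WT and in E, by 1.84 to 3.64 (log2) against WT. Ibsp was the most raised of them, 12.5-fold, and Sp7 the least, 3.58-fold. These sizes depend on the scaling, and with arrays scaled on the poly-A controls they were 2.63 for Ibsp and 0.83 for Sp7 (log2). In E the same genes took different courses. Alpl fell 2.02-fold, Sp7 and Phex read above WT without passing the test, and Ibsp, Dmp1 and Dlx5 overlapped with WT. Differences were called at a limma adjusted p under 0.05 over the 9097 genes with the brighter mean signal (at least 6.83), which included 5 of the 6 genes. Dlx5 lay under that limit and was read from a fit over all 18194 genes.

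**Figure D1:**
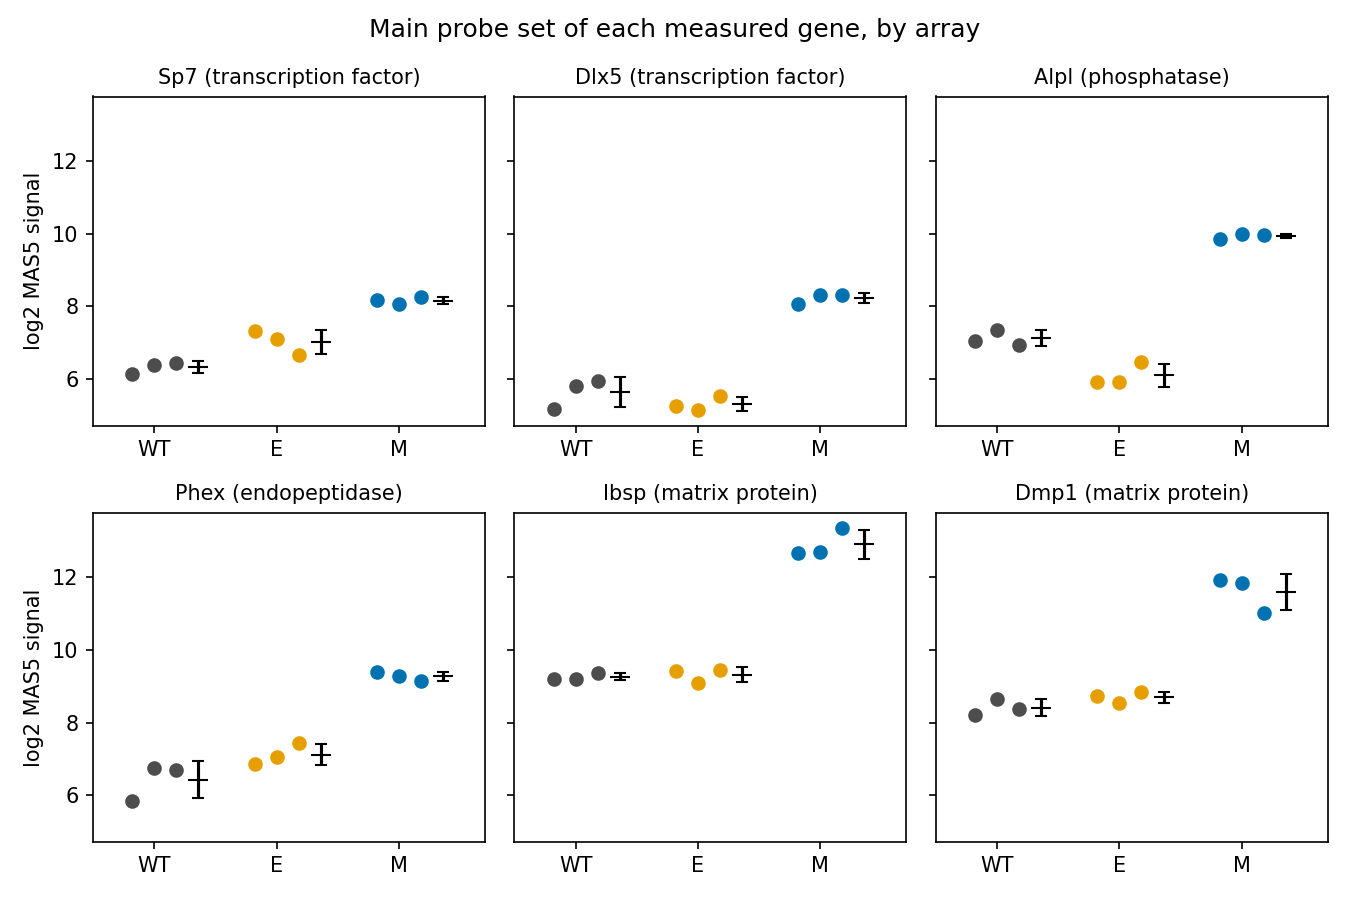
Log2 MAS5 signal of the main probe set of Sp7, Dlx5, Alpl, Phex, Ibsp and Dmp1 (vertical axis) in the WT, E and M arrays (horizontal axis), with replicates 1 to 3 from left to right as points and the group mean with its SD as a bar to their right. The 3 M arrays lie above all WT and E arrays for each gene, and Alpl is the gene whose E arrays all lie below WT.

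Sp7, Alpl and Phex passed the brightness limit only through their M arrays, since their mean over WT and E lay under it, so the counts over the 5 genes describe them and are not support for a rise. In M against WT, 5 of the 5 rose, where 25.3% of all tested genes did. Their arrays did not overlap with WT, which held as a higher signal for 26.5% of tested genes. The median of the 5 differences was 2.84, against -0.19 over all tested genes. In M against E the count was also 5 of 5, with a background of 26.1% called higher and 27.2% higher without overlap, and the median was 2.89 against -0.19. In the fit of all genes, where Dlx5 rose too, 22.2% were called higher in M than in WT and 24.1% higher than in E. In E against WT, 0 of the 5 rose, where 0.462% of tested genes did, and 1 fell, where 1.65% did. At an unadjusted p under 0.05 the fit called 1279 of the 9097 genes in E against WT. Over all genes, 42 were called higher and 150 lower in E (131 and 103 with median centring), and 36.8% of the calls in M against WT were higher (16.0% with median centring, 11.8% with poly-A scaling). Without M replicate 3 836 genes were called in E against WT, and Alpl was still the only one of the 5 (adjusted p = 0.00502). The arrays of E and WT did not overlap for Sp7 and Phex (higher) and for Alpl (lower), and such separation held for 15.0% of tested genes as higher and 14.7% as lower. The M comparisons share the M arrays, and both comparisons with WT share the WT arrays, so their values are given side by side and no overlap between them is counted.

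Sp7, the zinc finger factor without which osteoblasts do not form, was measured by probe set 1418425_at. Its signals were 6.13, 6.39 and 6.44 in WT, 7.31, 7.10 and 6.66 in E, and 8.17, 8.05 and 8.26 in M. The groups did not overlap, with WT lowest, E between and M highest. In M it was 1.84 ± 0.20 (SE) above WT (adjusted p = 1.38e-05) and 1.14 ± 0.20 above E (adjusted p = 0.000432). In E it was 0.70 ± 0.20 above WT and did not pass (95% interval 0.26 to 1.15, adjusted p = 0.122), and it passed when arrays were weighted by their quality (0.76, adjusted p = 0.0221). The difference between M and E was not called after centring arrays on their median (0.37, adjusted p = 0.137) or scaling them on the poly-A controls (0.12, adjusted p = 0.713).

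Dlx5, which drives early osteoblast genes, was read by probe set 1449863_a_at at 5.18, 5.80 and 5.95 in WT and 5.26, 5.16 and 5.53 in E. These values lie near the median of all probe sets, so a level there is close to background. In M the 3 arrays read 8.07, 8.32 and 8.31, well clear of both other groups. The gene rose by a fitted 2.59 ± 0.29 (SE) against WT and 2.92 ± 0.29 against E (adjusted p = 1.40e-05 and 4.25e-06 over all 18194 genes), sizes that rest on WT and E signals close to background. WT and E overlapped and differed by -0.33 (95% interval -0.96 to 0.31, adjusted p = 0.743).

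Alpl was the measured gene that moved in opposite directions at the 2 phases. Its probe set 1423611_at read 7.05, 7.36 and 6.94 in WT, 5.91, 5.93 and 6.47 in E, and 9.86, 9.99 and 9.96 in M. Every E array lay below every WT array, and every M array above both. In E it fell by 1.02 ± 0.19 (log2, SE), to 6.10 ± 0.32 from 7.12 ± 0.22 (SD, n = 3, limma adjusted p = 0.0179). That call was lost without WT replicate 1 (adjusted p = 0.0612), WT replicate 2 (0.0885), E replicate 1 (0.0808) or E replicate 2 (0.0798), with the difference between -0.90 and -1.05 in those fits. In M it reached 9.94 ± 0.07 (SD, n = 3), which was 7.06-fold WT (2.82 ± 0.19 SE, adjusted p = 2.68e-07) and 14.3-fold E (3.84 ± 0.19 SE, adjusted p = 1.83e-08). The E signals lay not far above the array medians, so sizes that involve E are uncertain. With 64 added to each linear signal, the difference was -0.61 for E against WT, 2.36 for M against WT and 2.97 for M against E, each still called. Of the genes tested, 0.758% had a difference between E and WT as low as that of Alpl or lower. Summed signals of the cartilage, pan-leukocyte, erythroid, osteoclast and macrophage markers were also lower in every E array than in any WT array (macrophage 754 to 838 against 1110 to 1312), and that of the granulocyte markers was higher. Among those tested, 12 of 15 cartilage, 1 of 7 pan-leukocyte, 0 of 6 erythroid, 1 of 3 osteoclast, 1 of 2 macrophage and 0 of 8 stromal markers fell, against 1.65% of all tested genes. The part of these in the fall of Alpl was not tested.

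Phex, a membrane endopeptidase of osteoblasts and osteocytes, had a pair of probe sets. The brighter, 1421979_at, read 5.85, 6.76 and 6.68 in WT, 6.87, 7.05 and 7.42 in E, and 9.39, 9.30 and 9.13 in M. WT replicate 1 was the low array of its group, and the 3 groups did not overlap. Phex rose 7.18-fold in M against WT (2.84 ± 0.25 SE, adjusted p = 2.18e-06) and 4.47-fold against E (2.16 ± 0.25 SE, adjusted p = 1.45e-05). In E it was 0.68 ± 0.25 (SE) above WT and did not pass (adjusted p = 0.228), and without WT replicate 1 the difference was 0.39 (adjusted p = 0.480). The dimmer probe set, 1450445_at, had a mean over all arrays of 3.67 and ran from 0.67 to 5.46 with no separation of groups. It did not pass in M against WT (-0.28, 95% interval -2.60 to 2.05), where the brighter one did.

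Ibsp and Dmp1 encode secreted acidic proteins and lie side by side on chromosome 5 in a row of related genes. In the RefSeq annotation (GRCm38.p6) the protein-coding genes there stand in the order Dspp, Dmp1, Ibsp, Mepe, Spp1. To show what precedes these neighbours that were raised together in M, the 250 bases before a RefSeq start of each are printed 5′ to 3′ on the plus strand. They are chr5:104299037-104299286 for Ibsp and chr5:104202367-104202616 for Dmp1, whose other annotated start is not shown. Capitals mark a match to the core word bound by Runx factors, TGTGGT or its reverse complement ACCACA.
Ibsp: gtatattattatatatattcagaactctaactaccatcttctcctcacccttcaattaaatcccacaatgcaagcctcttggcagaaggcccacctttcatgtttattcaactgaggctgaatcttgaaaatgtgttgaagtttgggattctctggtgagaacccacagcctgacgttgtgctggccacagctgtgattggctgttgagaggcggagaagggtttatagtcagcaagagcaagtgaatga
Dmp1: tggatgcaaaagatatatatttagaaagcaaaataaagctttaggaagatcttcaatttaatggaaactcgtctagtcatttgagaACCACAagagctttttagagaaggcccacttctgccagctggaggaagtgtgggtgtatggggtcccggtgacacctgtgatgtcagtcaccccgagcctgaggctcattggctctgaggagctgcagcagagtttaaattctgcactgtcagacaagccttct
The Dmp1 window holds 1 match, in reverse orientation, which begins 164 bases before the start. The Ibsp window holds none of these letters, nor did the 4 other windows of measured genes that the table lists (another of Dmp1, both of Alpl and that of Phex). Sp7 and Dlx5 have no window in the table. Of 32851 windows of this length, 14.0% held the word on either strand. A homeobox word, TAATTA, was in 0 of the 6 windows of measured genes and in 4.84% of all windows. These matches are letters in a window and were not tested for binding.

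Ibsp, which binds hydroxyapatite and integrins, read 9.21, 9.20 and 9.38 in WT and 9.41, 9.08 and 9.46 in E with probe set 1417484_at. In M it read 12.67, 12.69 and 13.37. WT and E overlapped, and the M arrays were far above both, with replicate 3 the highest. The difference between E and WT was 0.05 ± 0.17 (SE, 95% interval -0.33 to 0.43, adjusted p = 0.927), so a change of that size could not be told from the spread. In M it rose by 3.64 ± 0.17 (SE) against WT (adjusted p = 2.16e-08), a difference at or above that of 97.4% of tested genes. A dimmer probe set of Ibsp, 1417485_at, rose by 2.93 ± 0.22 (SE, adjusted p = 5.25e-07 over all probe sets) and differed by -0.07 in E.

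Dmp1, which nucleates mineral and marks osteocytes, had 3 probe sets. The brightest, 1443745_s_at, read 8.20, 8.66 and 8.37 in WT, 8.73, 8.54 and 8.84 in E, and 11.92, 11.85 and 11.02 in M. WT and E overlapped by 1 WT array, and M replicate 3 was the low array of its group while still above every WT and E array. Dmp1 rose 9.11-fold in M against WT (3.19 ± 0.21 SE, adjusted p = 3.15e-07) and 7.44-fold against E (2.89 ± 0.21 SE, adjusted p = 5.32e-07). In E it was 0.29 ± 0.21 (SE) above WT with the brightest probe set and 0.48 and 0.49 with the others, whose arrays did not overlap with WT. None of the 3 passed the test there (adjusted p = 0.699, 0.503 and 0.502 over all probe sets). Across all 10 probe sets of the 6 genes, 9 rose in M against WT and against E, where 18.5% and 20.6% of the 34958 probe sets did. The exception was the dim probe set of Phex.

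**Figure D2:**
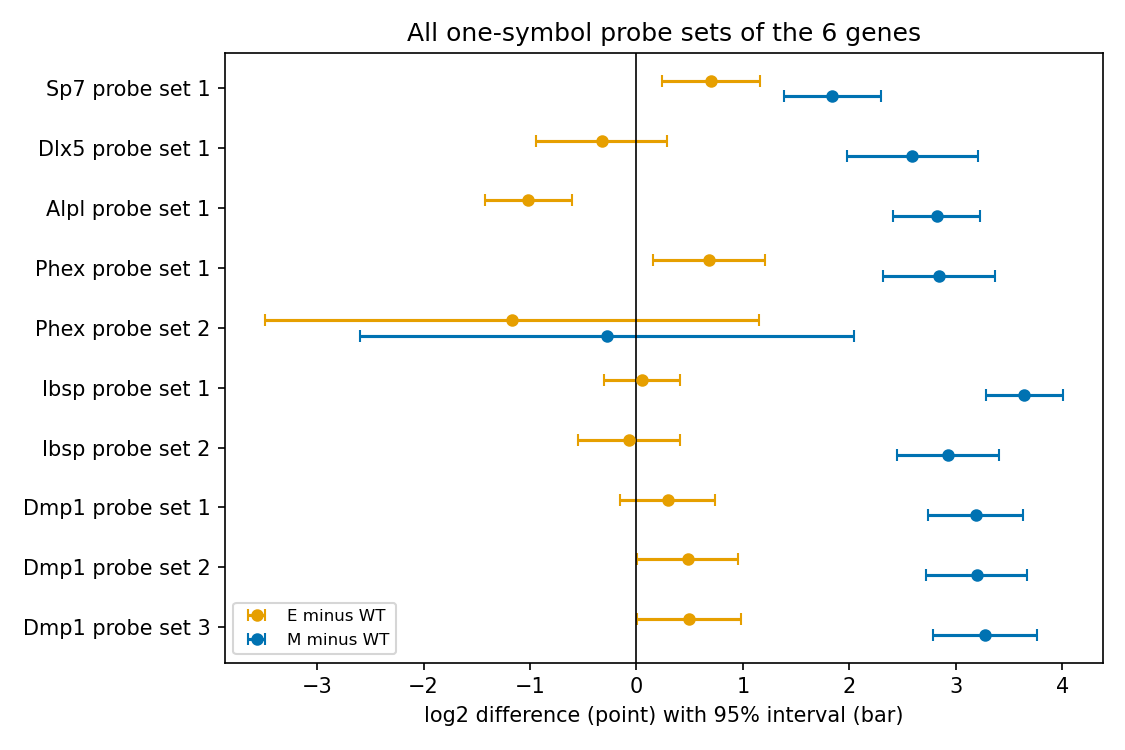
Log2 differences from WT (horizontal axis) for the 10 probe sets of the 6 genes, numbered from the brightest of each gene (vertical axis), in E (orange) and M (blue), with 95% intervals from the limma fit over all probe sets. Differences in M lie between 1.84 and 3.64 except for the dim second probe set of Phex (-0.28), whose interval spans 0, and in E the interval lies wholly below 0 for Alpl and wholly above 0 for Sp7, the brighter probe set of Phex and probe sets 2 and 3 of Dmp1, which did not pass after adjustment.

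Within M the genes did not vary together. M replicate 3 read 0.69 above the mean of replicates 1 and 2 for Ibsp (0.76 for its second probe set) and 0.87 below it for Dmp1, where the 3 probe sets differed by -0.87, -0.69 and -0.71. Replicates 1 and 2 differed by 0.02 for Ibsp and 0.07 for Dmp1. Alpl, Sp7 and Dlx5 differed by 0.03, 0.15 and 0.11 between replicate 3 and the others, and Phex by -0.21. Among 33 other genes of a bone formation list (given below) over the brightness limit, 27 were higher in replicate 3 and 6 lower, with a median of 0.45. Of the 8 osteocyte and late osteoblast genes among them, Ifitm5 (-1.11) and Cdh2 (-0.21) were lower in replicate 3, and the others were higher, up to 1.08 for Mmp14. Beside this, summed erythroid markers were 19344 in replicate 3 against 47097 and 44836 in the others, and summed osteoclast markers 6998 against 3560 and 3605. The osteoclast markers did not shift together. Of the 3 over the brightness limit, replicate 3 differed by 1.55 for Ctsk, 0.15 for Nfatc1 and -0.17 for Acp5. The part of these markers in the spread was not tested. Without M replicate 3 the difference between M and WT was 3.41 for Ibsp, 3.48 for Dmp1, 2.91 for Phex, 2.81 for Alpl, 1.79 for Sp7 and 2.55 for Dlx5, and each kept its call.

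**Figure D3:**
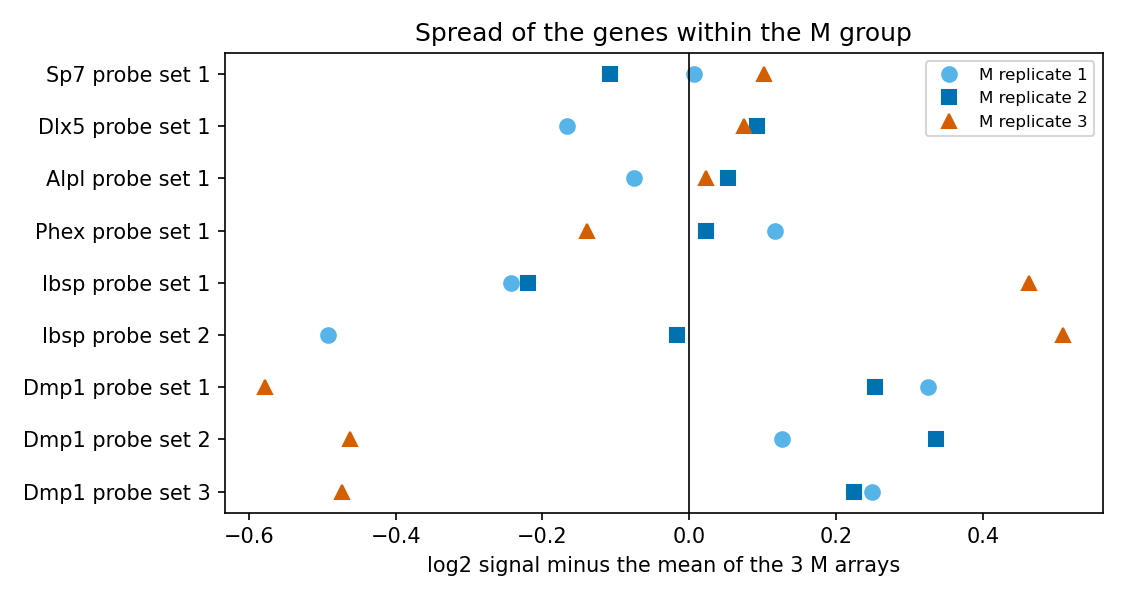
Log2 signal of each M array minus the mean of the 3 M arrays (horizontal axis) for the probe sets with a mean signal of at least 5 (vertical axis), with M replicates 1, 2 and 3 as circles, squares and triangles. Replicate 3 is the highest array for both probe sets of Ibsp and the lowest for the 3 of Dmp1.

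The other genes of bone formation were drawn from a list of 52 names in 5 roles, of which 48 had a probe set of their own and 33 passed the brightness limit. The list is not exclusive to osteoblasts. It holds genes of cartilage as well, among them Sox9 (3.53 in M against WT) and Fgfr3 (3.26). In M against WT, 30 of these 33 rose (25.3% of all tested genes did), 0 fell and 3 did not pass, with a median of 2.85 against -0.19 over all tested genes. In E against WT, 3 rose (0.462% of all tested genes did), 2 fell (1.65% did) and 28 did not pass, with a median of -0.16 against 0.01. These counts in E moved with the processing. They were 1 and 1 with poly-A scaling, and 0 and 2 of 30 tested with the mean of all probe sets. With median centring they stayed at 3 and 2, and with arrays weighted by quality they were 3 and 6. With arrays scaled on the poly-A controls, 24 were called higher and 4 lower in M, and with arrays centred on their median 26 and 3. Of all 9097 tested genes, 966 were called higher and 7222 lower with poly-A scaling, and 1262 and 6639 with median centring. Genes that passed the limit did so on a mean that includes the bright M arrays, so these counts describe the list and are not support for it.

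Among 7 genes of the collagen scaffold and its small matrix proteins, 7 rose in M against WT, where 25.3% of all tested genes did. The rises ran from Col1a2, a chain of type I collagen (0.95, adjusted p = 9.97e-07), to Ogn, the leucine-rich proteoglycan osteoglycin (5.85, adjusted p = 7.35e-08). The rise of Col1a2 did not hold with poly-A scaling, where its sign turned. In E, Col1a1 (0.66, adjusted p = 0.038) and Col1a2 (0.40, adjusted p = 0.0179) were called higher and Mgp, the matrix Gla protein that inhibits calcification, lower. Mgp read 11.17, 10.99 and 11.17 in WT, 10.54, 10.46 and 10.32 in E, and 13.88, 13.87 and 14.19 in M. It fell by 0.67 ± 0.10 (SE) in E (adjusted p = 0.00425), a call kept without any 1 array (adjusted p from 3.24e-05 to 0.0331) and lost with poly-A scaling. The call of Col1a1 was lost whichever single WT or E array was left out (adjusted p up to 0.151). That of Col1a2 was lost without several single arrays (adjusted p up to 0.101). Both calls were also lost with poly-A scaling, without the intensity trend of the fit and with the mean of all probe sets. Quantile normalization removed the call of Col1a1 as well.

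Of 5 transcription factors and partners over the limit, 5 rose in M (25.3% of all tested genes did) and 0 passed in E. With median centring 4 were called higher and 0 lower in M, and with poly-A scaling 3 and 1. The smallest rise was that of Atf4, a stress factor that osteoblasts need for collagen synthesis (0.62, adjusted p = 8.57e-06), whose sign turned under median centring and poly-A scaling and whose call was lost with the mean of its probe sets. The largest was that of Zfp521, a zinc finger protein that restrains Runx2 (3.92, adjusted p = 1.23e-06). Cbfb, the binding partner of Runx proteins, read 10.45, 10.23 and 10.21 in WT, 10.04, 10.20 and 10.17 in E, and 11.80, 11.86 and 12.40 in M. It rose 3.31-fold in M (adjusted p = 1.53e-06) and was chosen for naming after its values were seen.

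Of 4 genes of phosphate and mineral handling over the limit, 2 rose in M (25.3% of all tested genes did), 2 did not pass and 0 passed in E. With median centring or poly-A scaling, under which most tested genes were called lower in M, 1 was called higher and 2 lower. Smpd3, a sphingomyelinase needed for bone mineral, went from 7.47 ± 0.14 (SD, n = 3) in WT to 10.32 ± 0.36 in M, with E at 7.14 ± 0.06, a rise in M of 2.85 ± 0.17 (SE, adjusted p = 1.25e-07). The phosphate transporter Slc20a1 was at 12.55 ± 0.02 in WT and 12.48 ± 0.10 in M (SD, n = 3) and did not pass (-0.06, adjusted p = 0.451). It was called lower with median centring and with poly-A scaling (-1.08), so the scaling decides its call. The median of all tested genes was then -0.82 with median centring and -1.20 with poly-A scaling. Mepe, the neighbour of Ibsp that lay under the limit, read 2.42, 5.39 and 3.19 in WT, 4.26, 5.52 and 4.64 in E, and 6.29, 5.60 and 6.24 in M. It rose by 2.37 ± 0.72 (SE, adjusted p = 0.0169 in the fit of all genes), a call lost without WT replicates 1 or 3 or M replicate 1 (adjusted p up to 0.0697) and under all 3 scalings tried.

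All 9 receptors and signals over the limit rose in M, where 25.3% of all tested genes did. With median centring or poly-A scaling 8 were called higher and 0 lower. The rises ran from the Wnt co-receptor Lrp6 (0.79, adjusted p = 0.000327, not called with median centring and of the other sign with poly-A scaling) to the Wnt receptor Fzd1 (4.31). Bmp2, the growth factor that induces Sp7 and Dlx5, was the member that fell in E. Its signals were 7.97, 7.75 and 8.23 in WT, 5.40, 6.48 and 5.87 in E, and 10.44, 10.66 and 11.43 in M. No groups overlapped, and E was the low group, as for Alpl. The fall in E was 2.06 ± 0.30 on the log2 scale (SE, adjusted p = 0.00348, and from 6.14e-05 to 0.0287 without any 1 array), and in M it rose by 2.86 ± 0.30 (SE, adjusted p = 8.77e-06). Below the limit lay a ligand and decoy pair through which osteoblasts steer osteoclasts, picked out after their values were seen. The ligand Tnfsf11 (RANKL) read 4.92, 4.24 and 2.88 in WT, 3.73, 4.44 and 2.42 in E, and 10.78, 10.46 and 9.58 in M, with a fitted rise of 6.26 ± 0.60 (SE, adjusted p = 4.22e-06 in the fit of all genes). Its WT and E signals lay under the array medians, so the direction is measured and the size is not. The decoy Tnfrsf11b (osteoprotegerin) read 6.36, 6.49 and 5.29 in WT, 3.13, 4.42 and 4.05 in E, and 8.95, 8.98 and 9.74 in M. It fell by 2.17 ± 0.42 in E (SE, adjusted p = 0.0362 in the fit of all genes, where 0.693% of genes were called lower), a size set by E signals under the array medians. That call was lost with quantile normalization and when WT array 1 or 2, E array 1 or 3, or M array 1 or 2 was left out (adjusted p up to 0.158). Of 10 osteoclast markers, 3 were over the brightness limit. Of these, 2 rose and 1 fell in M against WT, where 25.3% and 43.5% of all tested genes did. The summed signal of the 10 was 1354 to 1616 in WT, 776 to 948 in E and 3560 to 6998 in M.

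Of 8 osteocyte and late osteoblast genes over the limit, 7 rose in M (25.3% of all tested genes did) and 1 did not pass. With median centring or poly-A scaling 6 were called higher and 1 lower. The collagenase Mmp13 rose 51.5-fold (5.69 ± 0.09 SE, adjusted p = 1.58e-11), and Cd44, a hyaluronan receptor that blood cells also carry, was at 12.33 ± 0.04 in WT and 12.32 ± 0.25 in M (SD, n = 3, adjusted p = 0.939). Cd44 was called with median centring, poly-A scaling (-1.02, where the median of all tested genes was -1.20), the mean of its probe sets and without M replicate 3. Its place among the genes that did not pass depends on these choices. Cdh2, the adhesion molecule N-cadherin, was called higher in E. It read 6.49, 6.44 and 6.60 in WT, 7.64, 7.31 and 7.48 in E, and 10.45, 10.27 and 10.15 in M. The rise in E was 0.97 ± 0.14 (SE, adjusted p = 0.00348, and up to 0.0227 without any 1 array), and the call was lost when the mean of all its probe sets was used. Sost, the osteocyte product sclerostin, lay under the limit and read from 3.99 to 5.23 in WT, 3.53 to 5.16 in E and 4.35 to 5.45 in M. The groups overlapped, and it was not called in any comparison (adjusted p = 0.764 in M against WT).

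**Figure D4:**
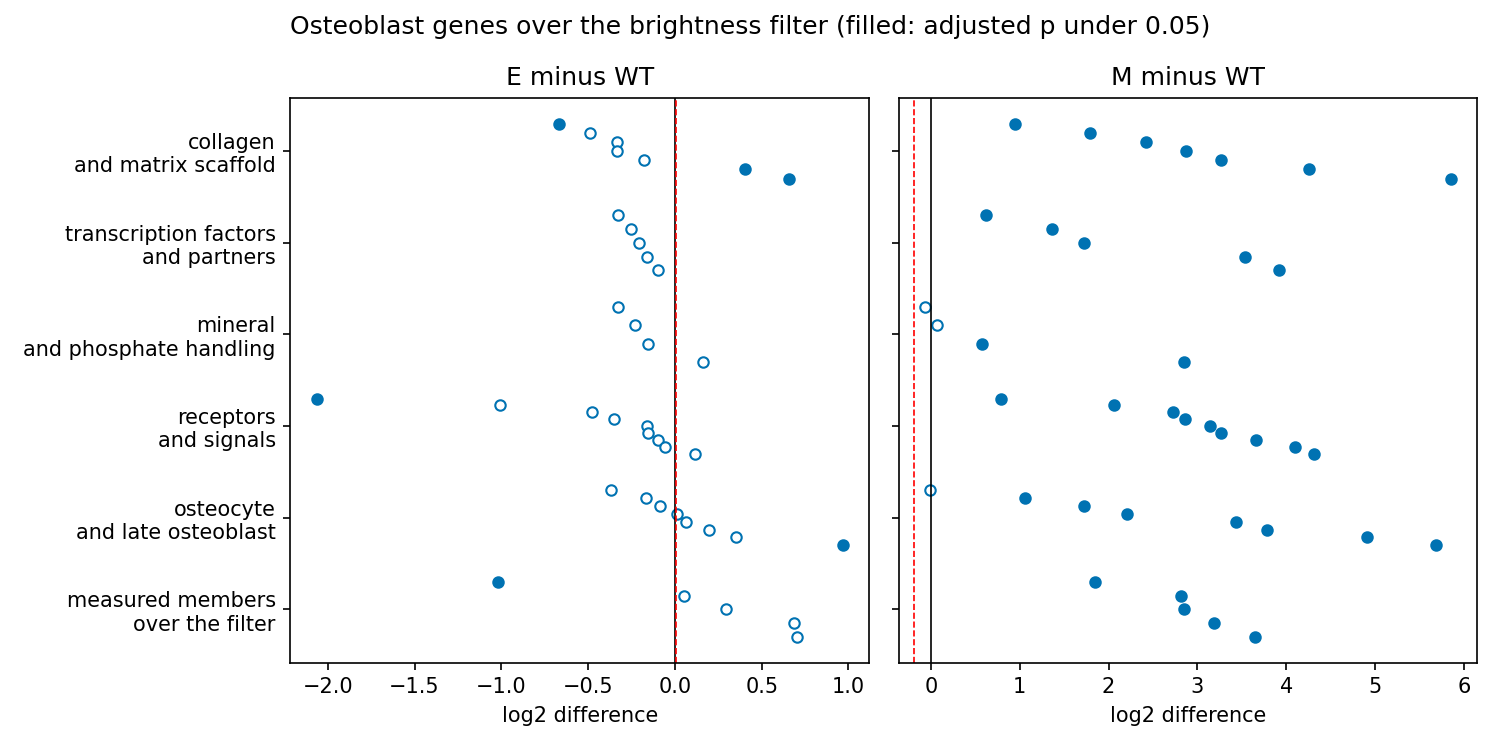
Log2 differences from WT in E (left) and M (right) on the horizontal axes for the 33 other listed genes of bone formation over the brightness limit, by role, and for the 5 measured genes over it (bottom row), each point a gene and filled where the limma adjusted p is under 0.05. The dashed line is the median of all 9097 tested genes (0.01 in E, -0.19 in M), and in M 30 of the 33 points are filled to the right of 0.

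Profiles over the 9 arrays were compared after centring each gene on its own mean, with the root mean square difference (log2) as the measure of likeness. Nearest to Alpl among all tested genes were S100a16 (0.19), Fosb (0.21) and Meg3 (0.21), which also had their lowest group mean in E. Nearest to Ibsp was Col4a2 (0.10), to Dmp1 Fam214b (0.15) and Adipoq (0.15), to Phex Gnai1 (0.20), and to Sp7 Scd2 (0.24). Among the 6 genes themselves the closest pair was Dmp1 and Phex (0.40) and the farthest Sp7 and Alpl (1.16), while Ibsp and Dmp1 differed by 0.53. All profiles share the step to M, and the measure is given as a description.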

How the data were processed

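Gene expression was measured on 9 Affymetrix mouse arrays labelled with a 3' kit, per the labels' protocols. The deposited table holds log2 signals, and the submitters' processing notes name MAS5 (version not given in the sources used here). Trimmed means of the linear signal were 500.0 in each array, so arrays had been scaled to a common mean. Values were used as deposited, with no pseudocount. Of 45101 probe sets, 34958 carried 1 gene symbol in the platform annotation, 932 several and 9211 were not listed. Genes were represented by the brightest probe set, and the 9097 with a mean of at least 6.83 (log2) were tested. limma 3.58.1 in R 4.3.3 fitted a linear model over all 9 arrays with an intensity trend, with Benjamini-Hochberg adjustment across all genes tested, for E against WT, M against WT and M against E. A gene under the limit was read from the same fit over 18194 genes, and single probe sets from one over 34958. SE and 95% intervals are those of the model. The fit was tested on simulated data.

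The genes and lists were chosen with earlier results of these data known. The named genes are the 9 listed genes, the largest and smallest change of each role in M against WT, every pathway gene called in E, the nearest profiles, and others stated as picked after their values were seen. Mepe, Sost, Ifitm5, Mmp14, Sox9, Fgfr3 and the single marker genes were named outside this rule. Promoter windows are those of RefSeq on GRCm38.p6, cut to the 250 bases before the start. Alternatives were pseudocounts of 1 and 64, no filter, a stricter filter, other scalings, other limma settings, only the groups compared, the mean of a gene's probe sets, a replicate block and leaving out each array. For genes under the limit, the scalings and left-out arrays were added after the data were seen.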

Additional observations from a re-analysis of the deposited data

Results flagged for a closer look

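The effect against WT differed between the E and M phases for each of the 6 measured genes, by the test of M against E (limma). These are the M against E calls given above, where 26.1% of tested genes were called higher (24.1% in the fit of all genes, used for Dlx5). Sp7, Alpl and Phex passed the brightness limit only through their M arrays, so the count is a description. The effect in M exceeded that in E by 1.14 for Sp7, 2.92 for Dlx5, 3.84 for Alpl, 2.16 for Phex, 3.59 for Ibsp and 2.89 for Dmp1 (log2, adjusted p of 0.000432 for Sp7 and from 1.76e-08 to 1.45e-05 for the others). For Alpl both effects were called and had opposite signs (-1.02 and 2.82). Its call in E was lost in 4 of the fits without a single array (adjusted p up to 0.0885). The difference between M and E for Sp7 was not called with median centring (0.37) or poly-A scaling (0.12).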

How the results depend on the processing

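In M against WT, all 118 values of the 6 genes under the alternatives run kept their sign and their call, from 0.83 (Sp7, poly-A scaling) to 3.76 (Ibsp, without M replicate 1). In M against E, 116 of 118 did, the exceptions being those of Sp7. In E against WT, 111 of 118 did. The near-zero difference of Ibsp turned to -0.0073 with the mean of all probe sets and lay between -0.0166 and 0.17 without single arrays, negative without E replicate 3. The cause of these was not tested.

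The number of genes called in E against WT (192) was 85 with a stricter brightness limit, where fewer genes were tested, 118 with quantile normalization, 848 with array weights, 756 with the arrays of both groups only, 99 with the mean of all probe sets, and from 98 to 836 without single arrays, the highest without M replicate 3. With that stricter limit it was 3466 in M against WT (6259 otherwise) and 3485 in M against E (6368), and 1 of the 6 genes, Ibsp, was tested, so members called were 0, 1 and 1. Members called in E against WT were 2 with array weights, and 0 to 1 without single arrays. Of the calls in E against WT, 42 were higher and 150 lower, and with median centring 131 and 103. Of those in M against WT, 36.8% were higher, 16.0% with median centring and 11.8% with poly-A scaling. Scalings moved the median of all tested genes in M against WT from -0.19 to between -0.28 and -1.20.

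Same-numbered arrays did not deviate together (correlations from -0.10 to 0.08 over 9 pairs, 0 over 0.1), so they share only a number. With a replicate block 153, 6100 and 6248 genes were called in E against WT, M against WT and M against E, and no call of the 5 genes over the brightness limit changed. Phex had no value with the mean of its probe sets and Dmp1, Sp7, Alpl and Phex none with the stricter limit, since they fell under those limits.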
